A study of Drosophila melanogaster with 24 samples.

Results

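The transcripts described here are those of 10 genes that encode voltage-gated ion channels of Drosophila or proteins that modulate them: para, Sh, Shab, Shal, Shaw, slo, eag, sei, Hk and qvr. Every probe set whose platform annotation gave 1 gene symbol, and that symbol one of these 10, was taken, and different probe sets of a gene were kept apart. This gave 10 of 11981 genes with a probe set of 1 symbol, and 22 of the 18769 probe sets on the array: 7 for Sh, 3 each for Hk and qvr, 2 each for Shab and Shaw, and 1 each for para, Shal, slo, eag and sei. Of these, 16 had a median Signal of at least 75 over all arrays and were tested together with 11439 probe sets in all. Signal is the linear expression value that the MAS5 algorithm gives for a probe set. The 6 member probe sets below that level were both of Shab, 3 of Sh and 1 of qvr.

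The study selected flies for how long they moved after a mechanical disturbance. The 3 selection groups were High (selected for long movement), Low (selected for little movement) and Control (unselected). All derived from 1 outbred base population made by crossing isofemale lines from Raleigh. Each group consisted of 2 replicate lines, and at generation 25 RNA of whole virgin flies aged 3 to 7 days was measured in both sexes, with 2 replicate samples of 12 flies per line and sex, or 24 arrays in total. No transgene or mutation was introduced in any group. A group is therefore represented by 2 populations, and the error of the tests below is the spread between the 2 samples of a line and sex, so that it does not include how far the 2 populations of a group lie apart. Nothing in the labels gives a batch.

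Voltage-gated channels open and close with the membrane potential and shape the action potential of nerve and muscle. para encodes the voltage-gated sodium channel of flies, which carries the rising phase. Sh, Shab, Shal and Shaw encode the pore-forming subunits of 4 families of voltage-gated potassium channels, slo that of the calcium-activated potassium channel, and eag and sei those of channels of the ether-a-go-go family. Hk encodes a cytoplasmic beta subunit of the Sh channel, and qvr (also called sleepless) a membrane-anchored protein that regulates Sh. Mutants of several of these genes in flies show leg shaking, seizures, paralysis or short sleep. Sh, Hk, eag and para lie on chromosome X, Shaw on 2L, Shab and Shal on 3L, slo on 3R, and qvr and sei on 2R.

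The median Signal of an array lay between 143 and 158 on the 12 male arrays and between 93.0 and 118 on the 12 female arrays. Replicate samples of a line and sex correlated at r = 0.948 to 0.960 over the log2 Signal of all probe sets. Of 10 listed neuron markers, 8 were on the array with a single symbol (elav, nSyb, brp, futsch, Syn, cpx, Rab3 and Snap25), and no array had any of them at 0. Their summed Signal ranged over 11797.9 to 12981.9 in High males, 10622.8 to 11944.9 in Low males and 12020.0 to 13722.7 in Control males. In females it ranged over 7004.4 to 9579.9 in High, 6877.6 to 7641.8 in Low and 9150.8 to 10493.1 in Control lines. These were whole flies, so fewer cells of a type and less RNA per cell cannot be told apart.

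Between the sexes, most of the members that passed the test were higher in males. Of the 16 member probe sets, 7 differed at an adjusted p under 0.001 (limma), 6 of them higher and 1 lower in males. Of all probe sets tested, 69.5% passed, 25.6% higher and 43.9% lower in males. The median difference of the members was 0.32 on the log2 scale, against -0.19 over all probe sets tested.

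The largest difference among the members was that of the Shaw probe set 1632961_at. Its Signal in males had a lowest value of 260.0, a median of 309 and a highest value of 362, against 114, 141 and 215 in females. All 12 male arrays lay above all 12 female arrays, as they did for 17.1% of all probe sets tested. The difference was 1.05 ± 0.06 on the log2 scale (SE, adjusted p = 5.85e-10), or 2.07-fold. The other Shaw probe set, 1623070_a_at, had medians of 198 in males and 196 in females and did not pass (-0.02 ± 0.07, adjusted p = 0.774), so the 2 probe sets of this gene gave different results.

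The other members that were higher in males belonged to Sh and its regulators. For qvr 1635961_at, Signal had a lowest value of 657, a median of 787 and a highest value of 935 in males, against 358, 481 and 566 in females, with no overlap (0.74 ± 0.05, adjusted p = 2.93e-09). For Hk 1637853_a_at, the values were 330.1, 493 and 569 in males and 227, 312 and 483 in females, with overlap between the sexes (0.59 ± 0.08, adjusted p = 3.61e-06). Of the 4 tested Sh probe sets, 1641501_a_at (0.64 ± 0.06, adjusted p = 4.29e-08), 1626802_a_at (0.61 ± 0.06, adjusted p = 8.34e-08) and 1623933_at (0.36 ± 0.07, adjusted p = 0.000139) passed. The fourth, 1623917_a_at, did not (0.26 ± 0.15, adjusted p = 0.123). The call of Sh 1623933_at did not pass without Low line 2 (0.31, adjusted p = 0.0025) or without Control line 2 (0.335, adjusted p = 0.0015).

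sei was the 1 member that was lower in males. Its Signal in males had a lowest value of 123, a median of 176 and a highest value of 217, against 222, 271 and 348 in females. No male array reached the lowest female array, which also held for 28.7% of all probe sets tested. The difference was -0.59 ± 0.06 (SE, adjusted p = 5.16e-07). para was near the threshold (0.54 ± 0.14, adjusted p = 0.0026), with a median of 139.9 in males and 94.5 in females, and so was qvr 1627019_s_at (0.52 ± 0.12, adjusted p = 0.00141). slo (0.28 ± 0.13), eag (-0.26 ± 0.11), Shal (-0.03 ± 0.08) and the 2 remaining Hk probe sets did not pass.

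**Figure D1:**
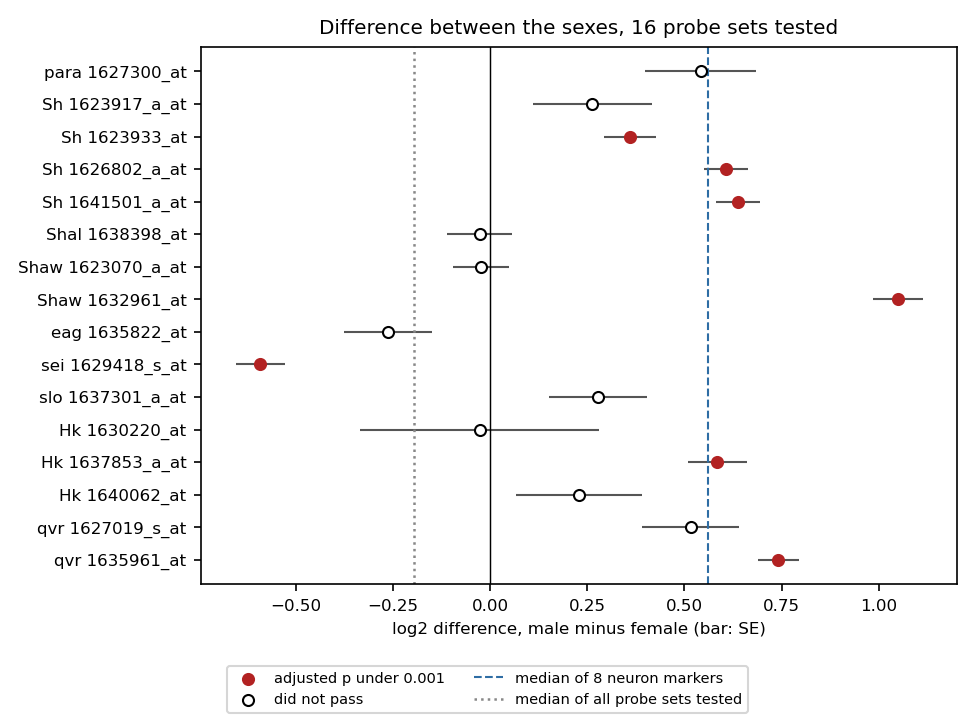
Difference between the sexes (log2, males minus females, horizontal axis) for the 16 member probe sets tested, with bars for the SE; filled points passed an adjusted p under 0.001. Shaw 1632961_at lies farthest to the right at 1.05 and sei farthest to the left at -0.59; the dashed line is the median of the 8 neuron markers (0.56) and the dotted line that of all probe sets tested (-0.19).

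The neuron markers differed between the sexes as well. Of the 8, 6 were higher in males and none was lower, with a median difference of 0.56. The members were also set relative to these markers, by subtracting from each array its mean log2 Signal over the 8 markers. This moves all probe sets of an array by the same amount. The part of the markers in the differences of the members was not tested. On this scale the median of all probe sets tested moved to -0.83. Relative to the markers, Shaw 1632961_at was still higher in males (0.41, adjusted p = 0.000109) and sei still lower (-1.23, adjusted p = 4.77e-10). The other Shaw probe set, 1623070_a_at (-0.66, adjusted p = 6.33e-07), eag (-0.90, adjusted p = 5.68e-06) and Shal (-0.66, adjusted p = 2.29e-06), which had not passed before, were lower in males on this scale. Of these, Shaw 1623070_a_at and Shal lay above the median of all probe sets (-0.83), and eag lay below it. The share of all probe sets that passed on this scale is not given. Sh 1641501_a_at (0.00, adjusted p = 0.994), Hk 1637853_a_at (-0.05, adjusted p = 0.624) and qvr 1635961_at (0.11, adjusted p = 0.102) no longer passed.

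The selection groups are compared next, first for Sh, which had the most probe sets and the differences found most often. In the Low lines, 3 of its 4 tested probe sets were lower than in the Control lines. Over all members, 4 of 16 probe sets passed an adjusted p under 0.05 in this comparison, all lower in Low lines, where 15.5% of all probe sets tested passed, 6.15% higher and 9.38% lower. The median difference of the members was -0.24, with 3 above and 13 below 0, against -0.01 over all probe sets.

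Sh 1623933_at showed the largest difference of Low from Control lines among the members. In males its Signal was 301, 409.9, 392 and 336.5 on the High arrays (2 arrays of line 1, then 2 of line 2, as in all lists below), 277.5, 313.5, 333 and 317 on the Low arrays, and 429, 412, 412 and 423 on the Control arrays. In females it was 311, 324.5, 316 and 226 in High, 217, 240.5, 204.5 and 223 in Low, and 358, 419.6, 291 and 308.5 in Control lines. Every Low array lay below every Control array of its sex, as was the case for 1.42% of all probe sets tested. The difference of Low from Control was -0.53 ± 0.08 (SE, limma, adjusted p = 0.000699), or 0.692 times the Control level, and it passed in each sex alone (males -0.44, adjusted p = 0.0496; females -0.62, adjusted p = 0.00322). High lines were between the other groups: 0.30 ± 0.08 above Low (adjusted p = 0.0212) and -0.23 ± 0.08 from Control (adjusted p = 0.0895). The difference of Low from Control passed in all 30 fits that left out 1 array or 1 line and with line as a random block (adjusted p = 0.0187), but not with the 6 line means as samples (adjusted p = 0.484). That of High from Low passed in neither (adjusted p = 0.18 and 0.498). The difference of High from Low did not pass without High line 1 (0.253, adjusted p = 0.11), Low line 1 (0.292, adjusted p = 0.081), Low line 2 (0.314, adjusted p = 0.0932), High line 2 male replicate 1 (0.275, adjusted p = 0.0515) or Low line 1 female replicate 1 (0.284, adjusted p = 0.0509).

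Sh 1641501_a_at was lower in both selected groups than in Control lines. In males its Signal was 301, 269, 324 and 295 in High, 292, 295.5, 358 and 354 in Low, and 431, 401, 353 and 435 in Control lines. Female values were 283, 235, 186 and 178.5 in High, 177, 192, 175 and 153.5 in Low, and 296, 358, 210.3 and 249.7 in Control lines. High males lay below all Control males and Low females below all Control females, as did 4.13% and 8.47% of all probe sets tested, while the other pairs of a selected group and Control overlapped. The difference from Control was -0.39 ± 0.07 for High (adjusted p = 0.00227) and -0.49 ± 0.07 for Low (adjusted p = 0.000384), and High did not pass against Low (0.10 ± 0.07, adjusted p = 0.379). The difference of Low from Control passed in all 30 fits that left out 1 array or 1 line, and that of High from Control did not pass without High line 2 (-0.293, adjusted p = 0.0603) or Control line 1 (-0.241, adjusted p = 0.0998). With line as a random block neither passed (adjusted p = 0.183 for High and 0.0661 for Low), nor with the line means (adjusted p = 0.651 and 0.507).

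Sh 1626802_a_at was lower in Low lines as well. In males its Signal was 328, 414, 471 and 416 in High, 344, 390.3, 379 and 365 in Low, and 441, 466, 423 and 408 in Control lines. In females it was 279.6, 321.5, 253 and 206 in High, 226, 234, 209 and 237 in Low, and 356, 416.5, 240.0 and 257 in Control lines. Again all Low arrays lay below all Control arrays of their sex, by as little as 237 against 240.0 in females. The difference was -0.34 ± 0.07 (adjusted p = 0.00474), and it did not pass without Control line 1 (-0.153, adjusted p = 0.309), with line as a random block (adjusted p = 0.216) or with the line means (adjusted p = 0.561). The 2 Control lines themselves differed for this probe set, by 0.38 ± 0.10 (adjusted p = 0.0359).

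The fourth tested Sh probe set, 1623917_a_at, gave no such pattern. Its Signal lay between 61.4 and 152 on the 24 arrays, and its difference of Low from Control was 0.11 ± 0.19 (adjusted p = 0.754). The 3 Sh probe sets below the filter had their highest values at 84.1 (1632879_at), 82.0 (1639174_at) and 57.2 (1640193_at). None of them passed in any comparison when all probe sets were tested.

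**Figure D2:**
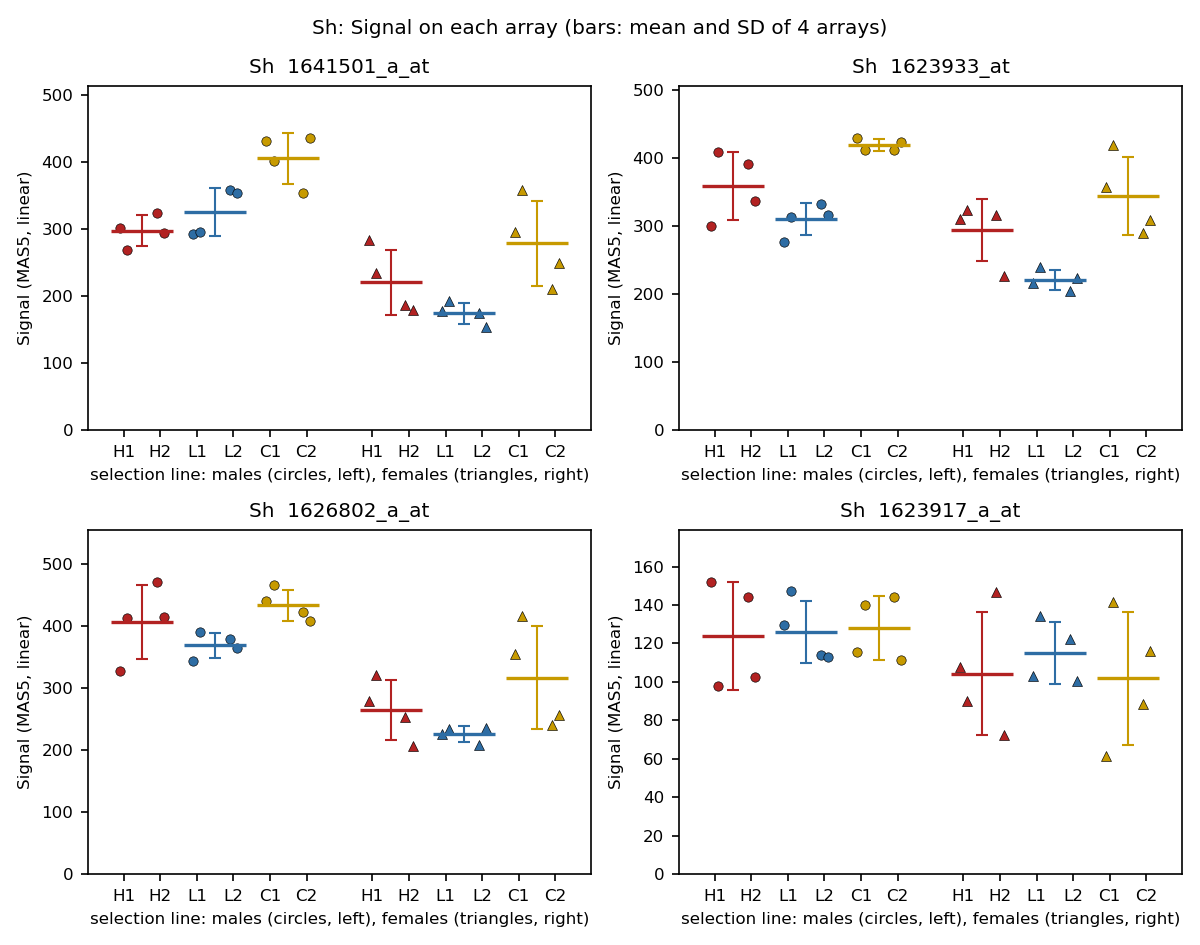
Signal (linear, vertical axis) of the 4 tested Sh probe sets on each of the 24 arrays, by selection line (H, High; L, Low; C, Control), with males as circles and females as triangles; bars give the mean and SD of the 4 arrays of a group and sex. For 1623933_at and 1626802_a_at the 4 Low arrays lie below the 4 Control arrays in each sex, and for 1623917_a_at all groups overlap.

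Deviations of the Sh probe sets ran together. With the mean of each sex subtracted, Pearson's r over the 24 arrays was 0.879 between 1623933_at and 1626802_a_at, 0.792 between 1623933_at and 1641501_a_at, and 0.758 between 1626802_a_at and 1641501_a_at. For 1623917_a_at it was -0.033 with 1623933_at, -0.039 with 1626802_a_at and -0.03 with 1641501_a_at. Among all pairs of different member genes it was highest between Hk 1637853_a_at and Sh 1641501_a_at (0.743). These points share arrays and array scaling, and the values are given as a description.

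slo was the member with the largest difference between High and Low lines. In males its Signal was 753.5, 395.5, 556 and 369 in High, 301, 325, 317 and 276 in Low, and 429, 375, 461 and 448 in Control lines. Among females it was 318, 496, 444 and 312 in High, 241, 300.2, 230.3 and 265 in Low, and 291, 409, 334 and 454 in Control lines. Every High array lay above every Low array of its sex, as was the case for 1.44% of all probe sets tested, and the 4 High arrays of a sex were spread more widely than the 4 Low arrays. The difference was 0.64 ± 0.15 (SE, adjusted p = 0.0115), or 1.56-fold. It did not pass without Low line 2 (0.592, adjusted p = 0.0935), nor, at the same size, with line as a random block (adjusted p = 0.0564) or with the 6 line means as samples (adjusted p = 0.321). In each sex alone slo did not pass (males 0.71 ± 0.22, adjusted p = 0.0783; females 0.58 ± 0.22, adjusted p = 0.0889).

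slo and Sh 1623933_at were the 2 of 16 member probe sets that passed between High and Low lines, both higher in High, where 15.7% of all probe sets tested passed, 7.85% higher and 7.89% lower. The median difference of the members was 0.10, with 9 above and 7 below 0. Against the Control lines, slo was lower in Low (-0.50 ± 0.15, adjusted p = 0.0418) and had a difference of 0.14 ± 0.15 in High (adjusted p = 0.62). The lower level in Low rested on small margins: in 17 of 30 fits that left out 1 array or 1 line the value kept its sign but did not pass, and over all 30 it ranged over -0.59 to -0.41. Those 17 were the fits without either Low line, either Control line, any Low array but line 1 female replicate 2, or any Control array but line 1 female replicate 1 and line 2 female replicate 1 (adjusted p up to 0.20). Nor did it pass with line as a random block (adjusted p = 0.179) or with the line means (adjusted p = 0.484).

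High lines were compared with Control lines over all members next. Of 16 probe sets, 4 passed, all lower in High, where 11.2% of all probe sets tested passed, 4.36% higher and 6.82% lower. They were Sh 1641501_a_at, described above, and 1 probe set each of Shaw, sei and Hk. Both selected groups are set against the same Control arrays here. The median difference of the members was -0.09, with 5 above and 11 below 0, against -0.02 over all probe sets.

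Shaw 1632961_at had a Signal of 271, 279.5, 275 and 260.0 in High males, 362, 333, 289 and 357.5 in Low males, and 331, 357, 329 and 276 in Control males. Female Signal was 126, 147, 139 and 150.5 in High, 141, 141, 129 and 114 in Low, and 137, 192, 215 and 183 in Control lines. High males lay below all Low males, as did 4.23% of all probe sets tested, and overlapped Control males only at the lowest Control array. The difference of High from Control was -0.30 ± 0.08 (adjusted p = 0.0252), and that of Low from Control was -0.20 ± 0.08 (adjusted p = 0.103). In Low females alone the difference from Control passed (-0.45 ± 0.11, adjusted p = 0.0135), and in Low males it was 0.05 ± 0.11 (adjusted p = 0.916). Whether this difference was unlike in the sexes was not tested by itself, and the interaction of line and sex did not pass (limma, moderated F, adjusted p = 0.272). The other Shaw probe set differed by -0.03 ± 0.09 between High and Control and by 0.01 ± 0.09 between Low and Control.

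sei, an ether-a-go-go family channel whose mutants in flies are paralysed by heat, had its lowest female levels in High lines. Its Signal in females was 237, 244, 222 and 222 in High, 293, 253, 279 and 282 in Low, and 291.5, 348, 283.5 and 263 in Control lines. All 4 High females lay below all Low and all Control females, which held for 7.56% and 4.89% of all probe sets tested. In males it was 172, 193, 149.6 and 171.5 in High, 182, 179.5, 169.6 and 123 in Low, and 217, 214, 214 and 160.0 in Control lines, with overlap. The difference of High from Control was -0.29 ± 0.08 (adjusted p = 0.0309), and that of Low from Control -0.20 ± 0.08 (adjusted p = 0.104).

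Hk 1637853_a_at had a Signal of 436.5, 330.1, 508 and 492.5 in High males, 468, 503, 546 and 567 in Low males, and 569, 494, 474 and 486 in Control males. In females it was 394, 319, 281 and 227 in High, 304, 368, 240.3 and 231.5 in Low, and 455, 483, 423.5 and 281 in Control lines. The groups overlapped in both sexes. High was lower than Control by the fit (-0.32 ± 0.09, adjusted p = 0.0400). In females alone Low was lower than Control (-0.52 ± 0.13, adjusted p = 0.0154), and in males it was at 0.04 ± 0.13 (adjusted p = 0.957). Whether the difference of Low from Control was unlike in the sexes was not tested by itself. The interaction of line and sex did not pass (limma, moderated F, adjusted p = 0.126). The 2 other Hk probe sets, with medians of 81.2 and 118 in females, did not pass in any of these comparisons.

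The calls of Shaw, sei and Hk between High and Control were close to the threshold. None passed with line as a random block (adjusted p = 0.218 for Shaw, 0.247 for sei and 0.489 for Hk) or with the 6 line means as samples (adjusted p = 0.643, 0.715 and 0.704). Leaving out 1 array or 1 line, that of Shaw did not pass in 10 of 30 fits, that of sei in 12 and that of Hk in 18, with values of -0.36 to -0.24, -0.40 to -0.18 and -0.47 to -0.17 on the log2 scale. Without Control line 1 the values were -0.18 for sei (adjusted p = 0.319) and -0.17 for Hk (adjusted p = 0.426), and without Control line 2 that of Shaw was -0.27 (adjusted p = 0.107). Without High line 2 they were -0.21 for sei (adjusted p = 0.226), -0.31 for Shaw (adjusted p = 0.0845) and -0.30 for Hk (adjusted p = 0.142), and without High line 1 they were -0.29 for Shaw (adjusted p = 0.1) and -0.34 for Hk (adjusted p = 0.0642). Hk also did not pass without either Low line (adjusted p up to 0.0644). Of single arrays, Shaw depended on line 1 female replicate 1, line 2 female replicate 1 and line 2 male replicate 2 of High, and on line 1 female replicate 2, line 1 male replicate 2, line 2 female replicate 1 and line 2 male replicate 1 of Control (adjusted p up to 0.0677). sei depended on both line 2 females, line 2 male replicate 1 and both line 1 replicates 1 of High, and on all line 1 arrays but female replicate 1 and both line 2 replicates 1 of Control (adjusted p up to 0.0784). Hk depended on all High arrays but both line 1 replicates 1 and line 2 female replicate 1, on both Low line 2 females, and on all Control arrays but line 1 male replicate 2 and line 2 female replicate 2 (adjusted p up to 0.0974).

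**Figure D3:**
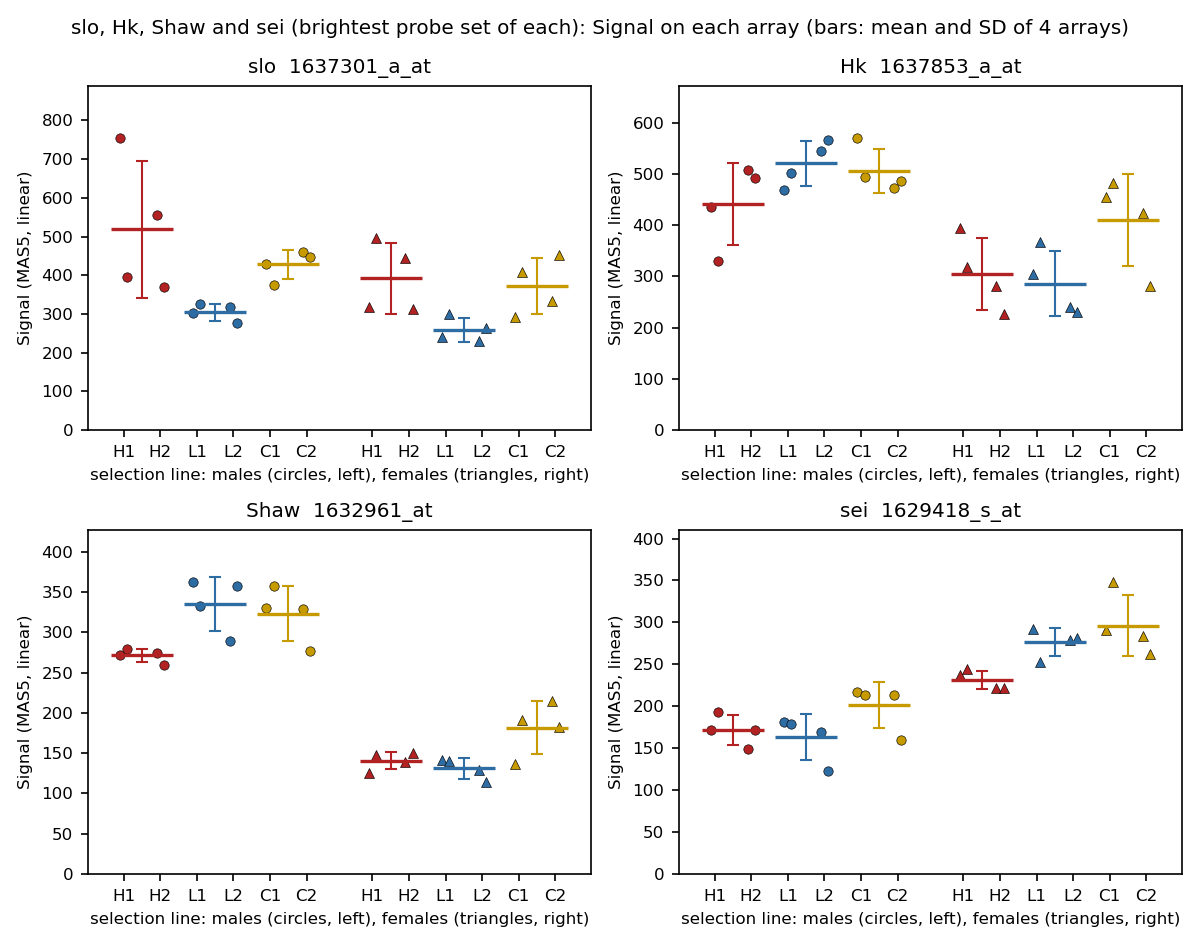
Signal (linear, vertical axis) of slo, Hk 1637853_a_at, Shaw 1632961_at and sei on each array, by selection line (H, High; L, Low; C, Control), with males as circles and females as triangles; bars give the mean and SD of 4 arrays. All High arrays lie above all Low arrays of their sex for slo, and for sei the 4 High females lie between 222 and 244, below all other females.

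para, the sodium channel gene, did not pass in any comparison of the groups. Its Signal in males was 181, 132, 155 and 163 in High, 106, 138, 133 and 97.7 in Low, and 147.5, 156, 127 and 142 in Control lines. Among females it was 78.5, 134, 151 and 62.9 in High, 107, 87.5, 58.6 and 82.2 in Low, and 95.4, 127, 102 and 93.6 in Control lines. Single arrays of High and Low lines overlapped in each sex, and the difference of High from Low was 0.35 ± 0.17 (adjusted p = 0.191). The difference of Low from Control was -0.31 ± 0.17 (adjusted p = 0.249). para and slo deviated together over the 24 arrays (r = 0.670, sex means subtracted).

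qvr 1635961_at, the brightest probe set of this gene, did not pass between groups either. In males its Signal was 850.0, 657, 772 and 779.7 in High, 782, 935, 924 and 837 in Low, and 749.8, 801, 792 and 769 in Control lines. Female values were 529.5, 564, 408 and 358 in High, 566, 520.4, 459.5 and 446 in Low, and 445, 483, 479 and 535 in Control lines. The groups overlapped in both sexes. The difference of High from Low was -0.15 ± 0.06 (adjusted p = 0.124) and that of Low from Control 0.10 ± 0.06 (adjusted p = 0.344). The other tested probe set, 1627019_s_at, differed by 0.15 ± 0.15 between High and Low (adjusted p = 0.566).

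Shal, a channel of the fast-inactivating type, and eag were dim, and their called differences were between lines of 1 group. Shal had a Signal of 169, 123, 86.0 and 77.8 in High males and 111, 133.5, 89.4 and 109 in High females. High line 1 exceeded High line 2 by 0.56 ± 0.15 (adjusted p = 0.0395), where 5.36% of all probe sets tested passed. eag had a Signal of 94.2, 100.3, 44.9 and 57.5 in Control males and 112, 141, 91.5 and 84.8 in Control females. Control line 1 exceeded Control line 2 by 0.73 ± 0.20 (adjusted p = 0.0456), where 5.57% passed. No member passed between the 2 Low lines, where 3.87% of all probe sets did. Shal differed by -0.26 ± 0.10 between Low and Control (adjusted p = 0.103), and eag by less than 0.01 (adjusted p = 0.986). These line differences were close to the threshold: leaving out 1 array or 1 line, that of Shal did not pass in 11 of 28 fits, that of eag in 16 and that of Sh 1626802_a_at between the Control lines in 9.

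**Figure D4:**
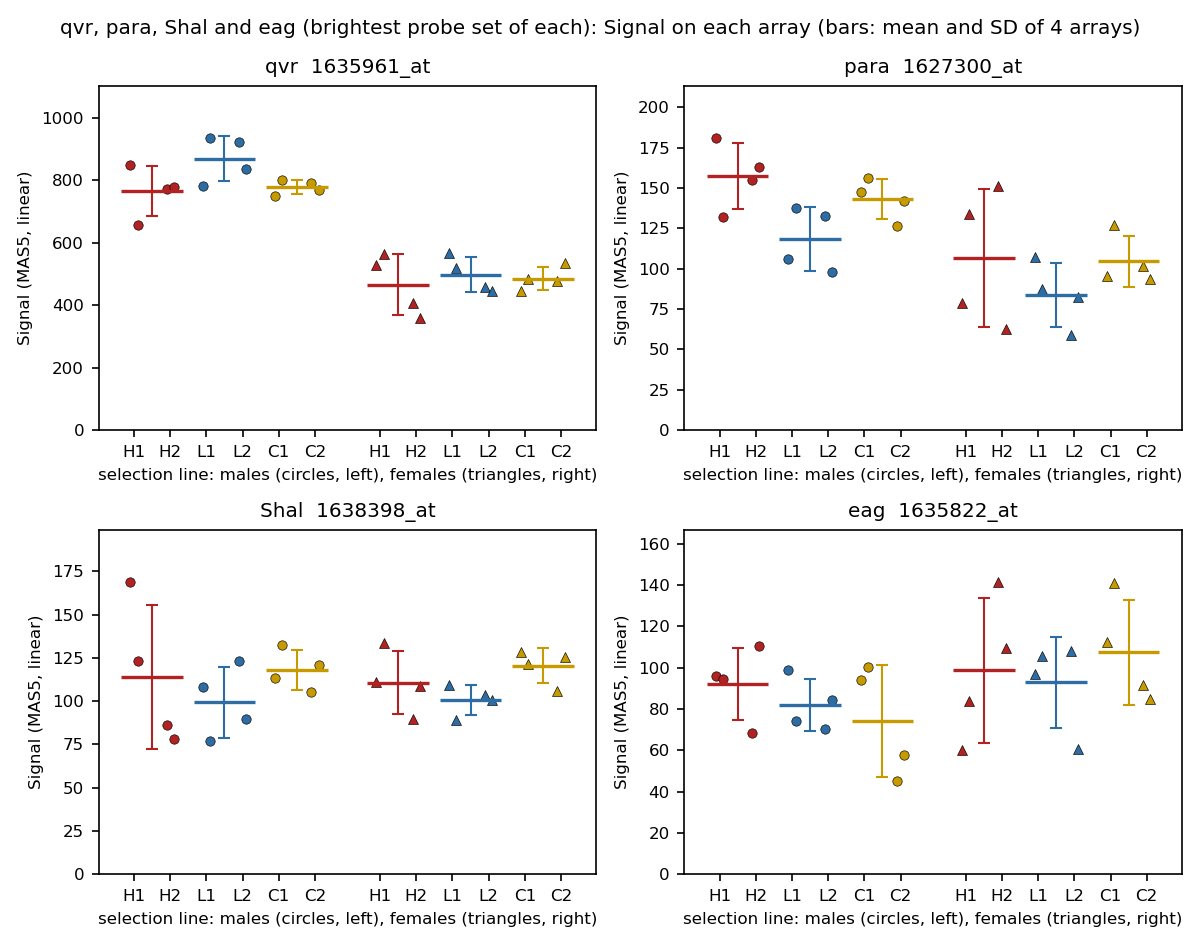
Signal (linear, vertical axis) of qvr 1635961_at, para, Shal and eag on each array, by selection line (H, High; L, Low; C, Control), with males as circles and females as triangles; bars give the mean and SD of 4 arrays. For qvr all males lie above all females (657 to 935 against 358 to 566), and the groups overlap in all 4 panels.

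Shab, the gene of a delayed rectifier channel, could not be followed. Its probe set 1633404_at had medians below the filter, and 1638535_a_at had a lowest value of 6.5, a median of 24.3 and a highest value of 71.0 in males, against 4.4, 11.7 and 25.5 in females. Among all probe sets, neither passed for sex (0.66, adjusted p = 0.0345 and 1.01, adjusted p = 0.0474, against a threshold of 0.001) or between groups.

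Over the 6 lines, no member passed an adjusted p under 0.001 (limma, moderated F), where 4.76% of all probe sets tested did. At an unadjusted p under 0.05 there were 9 of 16. That count cannot be set against the 4.76%, and no share of all probe sets is given for unadjusted p-values here or below. The nearest was Sh 1641501_a_at (F = 13.9, adjusted p = 0.00104), followed by Sh 1623933_at (adjusted p = 0.00463) and Sh 1626802_a_at (adjusted p = 0.0078). No member passed for the interaction of line and sex, where 0.0437% of all probe sets did. For the difference of High from Low between the sexes, 0 of 16 passed an adjusted p under 0.05 (limma; 0.551% of all probe sets passed), and 2 of 16 had an unadjusted p under 0.05, Sh 1641501_a_at (-0.44 ± 0.14 in males minus females, adjusted p = 0.169) and Shaw 1632961_at (-0.40 ± 0.16, adjusted p = 0.25).

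In females alone, 5 of 16 members were lower in Low than in Control lines (18.7% of all probe sets tested passed): Sh 1641501_a_at (-0.65 ± 0.10, adjusted p = 0.000943), Sh 1623933_at, Sh 1626802_a_at, Hk 1637853_a_at and Shaw 1632961_at. In males alone, 1 of 16 passed (3.92% of all), Sh 1623933_at. Between High and Low males (5.57% of all passed) and between High and Control females (6.27%) 0 of 16 passed. At an unadjusted p under 0.05 there were 2 and 5, counts that cannot be set against these shares. Between High and Low females, Sh 1623933_at (0.40 ± 0.12, adjusted p = 0.0336) and Sh 1641501_a_at (0.32 ± 0.10, adjusted p = 0.0423) were higher in High (14.5% of all passed), and between High and Control males Sh 1641501_a_at was lower in High (-0.44 ± 0.10, adjusted p = 0.0222; 3.06% of all passed).

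**Figure D5:**
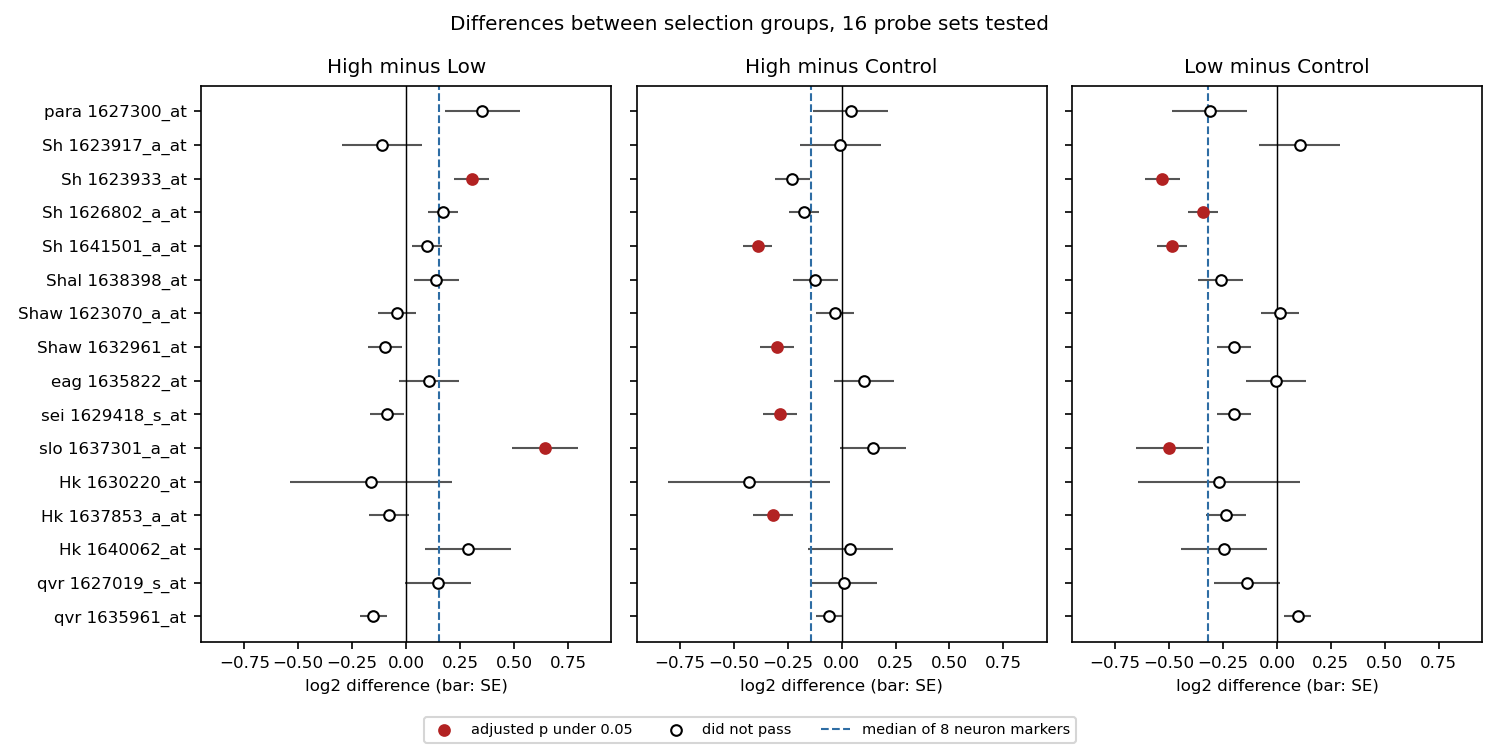
Differences between selection groups (log2, horizontal axes; High minus Low, High minus Control and Low minus Control) for the 16 member probe sets tested, with bars for the SE; filled points passed an adjusted p under 0.05. The dashed lines mark the median of the 8 neuron markers (0.15, -0.14 and -0.32), and slo lies farthest to the right in the first panel at 0.64.

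The neuron markers moved with these differences. Between Low and Control lines, 5 of the 8 were lower in Low (elav, Syn, cpx, Rab3 and Snap25), with a median of -0.32, and between High and Control 4 were lower in High (elav, Syn, cpx and Snap25), with a median of -0.14. Between High and Low, Rab3 was higher in High, with a median of 0.15 over the 8. The summed Signal of 4 tested ovary markers was highest in Low females. It ranged over 9735.6 to 12771.0 in High, 14593.8 to 22574.0 in Low and 9831.3 to 14214.8 in Control females. Between Low and Control females 1 of these 4 was higher in Low and 3 did not pass, with a median of 0.87. The part of ovary RNA in the results was not tested. None of the 4 tested muscle markers (Act88F, up, Mlc2 and TpnC41C) passed in these comparisons. Their median was 0.33 between High and Low (females 0.53), 0.05 between High and Control and -0.28 between Low and Control (females -0.72), and their summed Signal in females ranged over 18801.7 to 48996.7 in High, 13024.5 to 40029.7 in Low and 35724.1 to 44250.1 in Control lines. In males it ranged over 26204.2 to 49636.1 in High, 24569.3 to 46947.3 in Low and 17973.3 to 47703.2 in Control lines, and the part of muscle RNA in the results was not tested. Of 5 glia markers, 1 was lower in Low than in Control lines (repo), with a median of -0.06.

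Relative to the mean of the neuron markers, slo was still higher in High than in Low lines (0.44, adjusted p = 0.0167), while the median of all probe sets tested was at -0.22. Sh 1623933_at no longer passed in that comparison (0.10, adjusted p = 0.386). qvr 1635961_at (-0.36, adjusted p = 0.00257), Shaw 1632961_at (-0.31, adjusted p = 0.0221) and sei (-0.29, adjusted p = 0.0307), which had not passed before, were lower in High. The share of all probe sets that passed on this scale is not given. Between Low and Control, Sh 1623933_at no longer passed (-0.19, adjusted p = 0.0729), nor did Sh 1641501_a_at (-0.14, adjusted p = 0.188) or Sh 1626802_a_at (0.00, adjusted p = 0.971). There the median of all probe sets was at 0.34, and qvr 1635961_at (0.44, adjusted p = 0.000366), Shaw 1623070_a_at (0.36, adjusted p = 0.00503) and Sh 1623917_a_at (0.45, adjusted p = 0.0289) were higher in Low. On the scale without centring, these 3 Sh probe sets were at -0.53, -0.49 and -0.34 and the markers at a median of -0.32.

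Other genes of channels and of proteins that act on them were counted as a list, each through the brightest of its probe sets. Of 44 listed, 41 were on the array and 32 were tested. Between High and Low lines 8 were higher in High, 1 was lower and 23 did not pass, with a median of 0.13, where 7.58% of all 9470 genes tested were higher and 8.04% lower. Between Low and Control lines none was higher in Low, 12 were lower and 20 did not pass (median -0.27), where 6.29% of all genes were higher and 9.03% lower. Between High and Control 7 were lower in High, none was higher and 25 did not pass (median -0.07), where 4.38% of all genes were higher and 6.62% lower. For the sexes 11 were higher in males, 7 lower and 14 did not pass, where 27% of all genes were higher and 44.5% lower.

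The listed genes with the smallest p between High and Low lines included channels and RNA regulators. The inward rectifier potassium channels Irk2 (0.32, adjusted p = 0.000182) and Irk3 (0.49, adjusted p = 0.00458), the small-conductance calcium-activated potassium channel SK (0.48, adjusted p = 0.00105) and the calcium channel genes cac (0.29, adjusted p = 0.00452) and Ca-beta (0.59, adjusted p = 0.0211) were higher in High. So were unc79 (0.40, adjusted p = 0.00688), which acts with a sodium leak channel, and the splicing factor gene ps (0.51, adjusted p = 0.000596). mle, which encodes an RNA helicase needed for dosage compensation and for normal para transcripts, was lower in High (-0.39, adjusted p = 0.0131). Over the 6 lines 4 of the 32 passed (SK, Irk2, mle and ps), or 12.5%, against 4.58% of all genes tested.

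The probe sets whose deviations over the 24 arrays were most like those of Sh 1623933_at, with sex means subtracted, were those of CG32052 (r = 0.857) and dlg1 (1635382_at, r = 0.847). The dlg1 probe set was higher in High than in Low lines (0.39, adjusted p = 0.00545), but the brightest probe set of that gene was not (-0.03, adjusted p = 0.786). For slo they were those of ALiX (r = 0.794) and CG42319 (r = 0.789).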

How the data were processed

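Whole-fly RNA of 24 samples was hybridised to Affymetrix Drosophila arrays, 1 sample per array. The deposited values are Signal intensity on a linear scale, made by the authors with MAS5 (perfect-match against mismatch probes) and scaled by them per array. A build of the genome was not given in the sources used. Gene symbols came from the platform annotation (13646 probe sets with 1 symbol, 402 with several, 4721 with none), updated through Entrez identifiers. No column of the table was left unused.

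Signal was log2 transformed without rescaling. The test set was all probe sets whose median reached 75. A model of the 12 cells of line by sex was fitted with limma 3.58.1 in R 4.3.3 (lmFit, eBayes), which left 12 residual degrees of freedom. P-values were adjusted over all 11439 probe sets after Benjamini and Hochberg. The threshold was 0.001 for sex, line and their interaction and 0.05 for contrasts. The fit was tested on simulated data first. The number of arrays limits the precision. Both samples of a line and sex were separate pools of flies, but the labels do not say whether they came from separate cultures. P-values therefore measure only the spread between such pools.

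All probe sets of the 10 genes are reported, tested or not. Other channel genes were named by the smallest p of High minus Low among the calls, up to 8. The members and all lists were chosen with earlier results of these data known. Alternatives were the methods' ANOVA of linear Signal, log2(Signal + 50), quantile normalisation, median centring, filters of 50, 150 and none, a replicate block, the line as a random term, means per line, leaving out each array or line and, chosen after seeing the data, centring on 8 neuron markers. Python 3.11.15 with pandas 2.3.3 prepared the tables.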

Additional observations from a re-analysis of the deposited data

Results flagged for a closer look

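In 5 of 132 groups of 4 arrays of a probe set, selection group and sex, 1 array stood far from the other 3 by Dixon's test of its gap over the range, a rule by which chance picks about 1 group in 20. The gap over the range is in parentheses. For Sh 1623933_at, High female line 2 replicate 2 had a Signal of 226 against 311 to 324.5 on the other 3 High female arrays (0.883). For sei, Control male line 2 replicate 2 had 160.0 against 214 to 217 (0.947). For Shaw 1623070_a_at, High male line 2 replicate 2 had 181.5 against 205 to 209 (0.853). For 2 probe sets below the filter, qvr 1638713_at had 38.6 in Control male line 2 replicate 1 against 55.7 to 59.7 (0.841), and Sh 1639174_at had 68.3 in Low female line 1 replicate 2 against 38.4 to 41.0 (0.886).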

How the results depend on the processing

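Of 20 called differences of single probe sets, refitted under 205 other settings in all, 153 kept their direction and call, 48 kept the direction and did not pass, and 4 changed sign, all 4 after centring on the neuron markers: between the sexes Sh 1623933_at (-0.278), Sh 1626802_a_at (-0.0295) and Hk 1637853_a_at (-0.0520), and between Low and Control Sh 1626802_a_at (0.00319). With that centring 4 members passed between High and Low, of which only slo had passed before and 3 were lower in High (qvr 1635961_at, Shaw 1632961_at and sei), 0 between High and Control and 1 between lines of a group. That centring also moved the median of all probe sets tested between High and Low, in the direction of lower in High. Between High and Low the 2 calls became 1 with no filter, 0 with line as a random block (estimated correlation 0.176) and 0 with the 6 line means as samples. Between High and Control the 4 calls became 2 with quantile normalisation, 1 with no filter, and 0 with the random block and with line means. Between Low and Control the 4 calls became 1 with the random block, that of Sh 1623933_at, and 0 with line means. With line means limma called 0 of all probe sets. In each of the 3 comparisons 3 members had an unadjusted p under 0.05, for which no share of all probe sets is given. The line effect had 1 call instead of 0 with log2(Signal + 50) and with a filter of 150. The 3 calls between lines of a group became 1 with a filter of 150 and 0 with no filter. Between the sexes 9 members passed with quantile normalisation and with median centring, which moved the median of all probe sets to -0.25 and -0.08. Leaving out 1 array or 1 line gave 6 to 8 calls for sex, 0 for line, 0 to 3 between High and Low, 0 to 4 between High and Control, 2 to 5 between Low and Control, 0 for the sex difference of High minus Low and 0 to 3 between lines of a group. With a replicate block there were 7 calls for sex, 2 between High and Low, 4 between High and Control and 3 between Low and Control, slo being lost. Same-numbered samples did not deviate together (r of -0.257 to 0.256 over 66 pairs). Apart from the fit on line means, the share of all probe sets called under the other settings is not given. Counts of members under them can therefore not be set against the whole array. Causes were not tested. Dim probe sets such as those of Shab limit what could be seen.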
